A study of Ovis aries with 16 samples.

Results

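The SLC2A genes encode the facilitative sugar transporters (GLUT proteins), and 9 of them, SLC2A1, SLC2A2, SLC2A3, SLC2A4, SLC2A5, SLC2A8, SLC2A9, SLC2A10 and SLC2A12, were followed across liver and skeletal muscle of sheep exposed to bisphenol A (BPA) before birth. The members were taken by their gene symbols. All 9 were among the 28524 rows of the deposited table, which held 12 rows of the family in all.

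Facilitative transporters carry hexoses across a membrane down their concentration gradient, without using energy. In liver SLC2A2 (GLUT2) is the classical carrier, working in both directions, so that a fasted liver can release glucose. In skeletal muscle SLC2A4 (GLUT4) is the insulin-responsive carrier, held in storage vesicles that fuse with the cell surface after insulin or contraction. The other members differ in substrate and place: SLC2A1 and SLC2A3 serve basal glucose uptake in many cells, SLC2A5 carries fructose, SLC2A8 is mainly intracellular, SLC2A9 is best known for urate transport, and SLC2A12 is a second insulin-responsive carrier.

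RNA was sequenced from 16 libraries, a liver and a vastus lateralis muscle from each of 8 female Suffolk sheep. Mothers of the 4 BPA sheep (910, 918, 977 and 984) were injected under the skin with 0.5 mg/kg BPA in corn oil each day from day 30 to day 90 of gestation, and mothers of the 4 control sheep (902, 908, 924 and 928) with corn oil alone. BPA is a plasticizer with oestrogen-like activity. Tissue of both groups was taken at an age of about 21 months, following a fast of 48 hours, in the late follicular phase of a cycle synchronized with prostaglandin, 24 hours after its second injection. The groups therefore all show fasted tissue, and no fed or insulin-treated animals were compared. Levels are normalized read counts, the reads of a gene divided by 1 size factor per library. They are not divided by gene length, so a level is compared only with the same gene in other libraries.

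Recovered totals, in M (mega) reads, were 4.39 to 19.28 in control livers, 4.66 to 17.92 in BPA livers, 16.16 to 28.54 in control muscles and 15.15 to 26.54 in BPA muscles. The 4 livers under 15 M were the control 902 and the BPA livers 918, 977 and 984. Muscle creatine kinase CKM was at 310128 to 411785 in muscles and at most 29.1 in livers. The control liver 902 stood apart. Relative to the average liver, in log2 units, the median of its 13 hepatocyte markers was -2.84, and the median for fibroblasts and stellate cells (12 genes) was 4.13. The BPA livers 918, 977 and 984 had hepatocyte medians of -0.31, -0.93 and -1.08, while the BPA liver 910 (1.36) lay within the 1.16 to 1.52 of the remaining 3 controls. No hepatocyte marker was at 0 in any liver. In tissue of mixed cells, fewer cells of a type and less RNA per cell cannot be told apart.

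**Figure D1:**
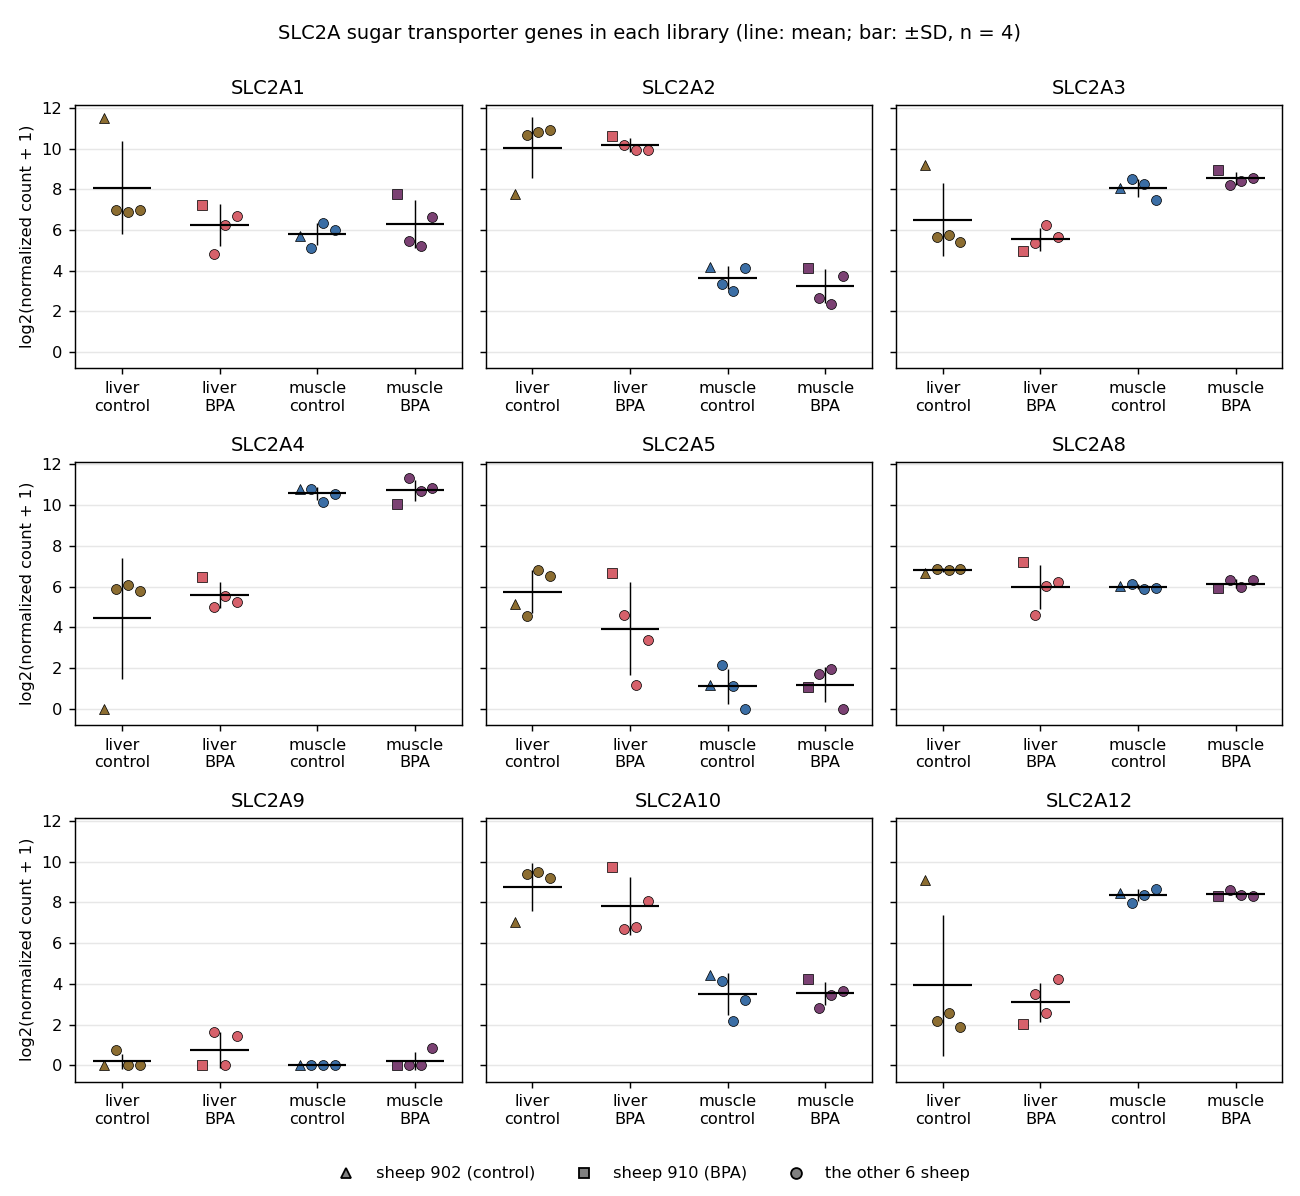
Level of each SLC2A gene in every library, as log2(normalized count + 1), by tissue and treatment; points are single libraries, lines are means and bars ±SD (n = 4). SLC2A2 and SLC2A10 sit high in liver, SLC2A4, SLC2A12 and SLC2A3 high in muscle, and the liver of sheep 902 (triangles) lies far from the other control livers for SLC2A1, SLC2A2, SLC2A3, SLC2A4, SLC2A10 and SLC2A12.

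SLC2A2, SLC2A10 and SLC2A5 were higher in liver, and another 3 members were higher in muscle, SLC2A4, SLC2A12 and SLC2A3. SLC2A1 and SLC2A8 did not pass, and SLC2A9 was barely detected. The test was limma on log2(value + 1) over all 16 libraries, restricted to rows averaging 10 or more, with Benjamini-Hochberg adjustment over all genes and a threshold of 0.05. By this rule 71.4% of 15995 genes passed between the tissues, 36.1% higher in liver and 35.3% lower, so passing was the usual outcome. Of the 9 members, 8 entered the test and 6 passed. The test did not pair the liver and muscle of a sheep. With that pairing the same 6 members passed, among 11091 of the 15995 genes.

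SLC2A2 measured 1624, 1805 and 1923 in the control livers 908, 924 and 928, but 220 in the control liver 902. In the BPA livers 910, 918, 977 and 984 it was 1590, 1172, 983 and 959. Control muscles held 17.0, 9.27, 7.04 and 16.4 (902, 908, 924 and 928) and BPA muscles 16.7, 5.37, 4.21 and 12.2 (910, 918, 977 and 984), from 3 to 20 reads each. Every liver, 902 included, lay above every muscle. The log2 difference was 6.66 (SE 0.416, adjusted p = 5.01e-10 by limma), 101-fold on the log2(value + 1) scale. The muscle libraries also held hepatocyte transcripts at a low level: the 13 markers summed to 10788 to 16397 in control muscles and 5190 to 10914 in BPA muscles, against 66233 to 1499893 over the livers. SLC2A2 and the marker sum were both highest in the muscle of sheep 902, SLC2A2 was lowest in 977 and the marker sum in 918, and the part of the markers in the muscle values of SLC2A2 was not tested.

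SLC2A10, which encodes GLUT10, a carrier whose loss in humans causes arterial tortuosity, was the other strongly liver-enriched member. Its control livers held 128 (902), 664, 728 and 588, and its BPA livers 845 (910), 102, 111 and 265. In muscle it ran from 3.52 to 20.7. The log2 difference was 4.78 (SE 0.491, adjusted p = 2.34e-07 by limma), or 27.5-fold, and the liver was higher in 8 of 8 sheep.

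SLC2A5, the fructose carrier, varied widely within liver. Control livers held 33.9 (902), 22.7, 109 and 91.9, and BPA livers 99.4 (910), 22.9, 1.25 and 9.24, the value of 977 resting on 1 read. Muscle ranged from 0 to 3.37, at most 4 reads. The liver was higher in 7 of 8 sheep, with sheep 977 the exception, and the log2 difference was 3.71 (SE 0.649, adjusted p = 8.78e-05 by limma).

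SLC2A4 showed the opposite order. Control muscles measured 1778, 1799, 1143 and 1486 and BPA muscles 1077, 2597, 1632 and 1830. In liver the controls 908, 924 and 928 held 57.8, 66.8 and 53.7 and the control 902 none, while the BPA livers held 88.7, 31.2, 46.2 and 37.0. The muscle was higher in 8 of 8 sheep, the log2 difference being -5.65 (SE 0.679, adjusted p = 1.51e-06 by limma), 50.2-fold. Without sheep 902 it was -4.87. CKM was at 0 in the livers 908, 928 and 977, where SLC2A4 was 57.8, 53.7 and 46.2. It was at 29.1 and 26.9 in the livers 918 and 984, where SLC2A4 was 31.2 and 37.0. All 11 muscle fibre markers together, CKM among them, summed to 410, 390 and 383 in 908, 928 and 977. They summed to 1139 and 924 in 918 and 984. In the livers 902, 910 and 924 they summed to 648, 449 and 380, where SLC2A4 was 0, 88.7 and 66.8. The part of muscle transcripts in the liver values of SLC2A4 was not tested.

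SLC2A12 was the second muscle-enriched carrier. It measured 352, 254, 326 and 403 in control muscles and 319, 391, 330 and 320 in BPA muscles. The livers of the other 7 sheep held 2.68 to 17.6, and the control liver 902 held 554, above all 8 muscles. The log2 difference was -4.88 (SE 0.796, adjusted p = 4.30e-05 by limma) with all sheep and -5.73 (SE 0.295, adjusted p = 1.06e-10) without sheep 902.

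SLC2A3, the high-affinity carrier typical of neurons and blood cells, was also higher in muscle. Control muscles held 267, 357, 300.4 and 177 and BPA muscles 497, 293, 341 and 377. Livers held 577 in the control 902, 49.5, 52.6 and 41.6 in the other controls, and 29.8, 39.6, 76.1 and 48.7 in BPA. The muscle was higher in every sheep but 902, with a log2 difference of -2.28 (SE 0.436, adjusted p = 0.000208 by limma) and of -2.72 without 902.

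For SLC2A1 and SLC2A8 the ranges of the tissues overlapped. SLC2A1, the general basal carrier, measured 125, 116 and 125 in the control livers 908, 924 and 928 and 2902 in 902, with 147, 27.1, 74.9 and 102 in BPA livers. Muscle held 51.1, 33.7, 81.0 and 63.0 in controls and 219.5, 43.0, 36.5 and 99.7 in BPA. Its log2 difference was 1.12 (95% interval -0.20 to 2.44, adjusted p = 0.117 by limma), and 0.54 without sheep 902. The count test edgeR, which called 72.7% of all genes, put it past the threshold (adjusted p = 0.0220). SLC2A8, an intracellular hexose carrier, lay at 99.9 to 117 in control livers, 22.9 to 146 in BPA livers, and 57.5 to 79.8 in muscle, a log2 difference of 0.34 (95% interval -0.23 to 0.91, adjusted p = 0.269 by limma). Without sheep 918, whose liver held the lowest value (22.9), the difference was 0.61 and passed (adjusted p = 0.00901 by limma), as did 69.4% of all genes.

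SLC2A9, which encodes a urate carrier, had reads in 3 of 8 livers (2.08 in 918, 1.68 in 984 and 0.69 in 908) and in 1 of 8 muscles (0.81 in 984), never more than 2 reads. It was not tested. A count of 0 in these libraries allows a level of up to 2.01 to 5.65 in liver and up to 2.30 to 4.21 in muscle, taking 3 reads as the limit and covering counting error only.

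**Figure D2:**
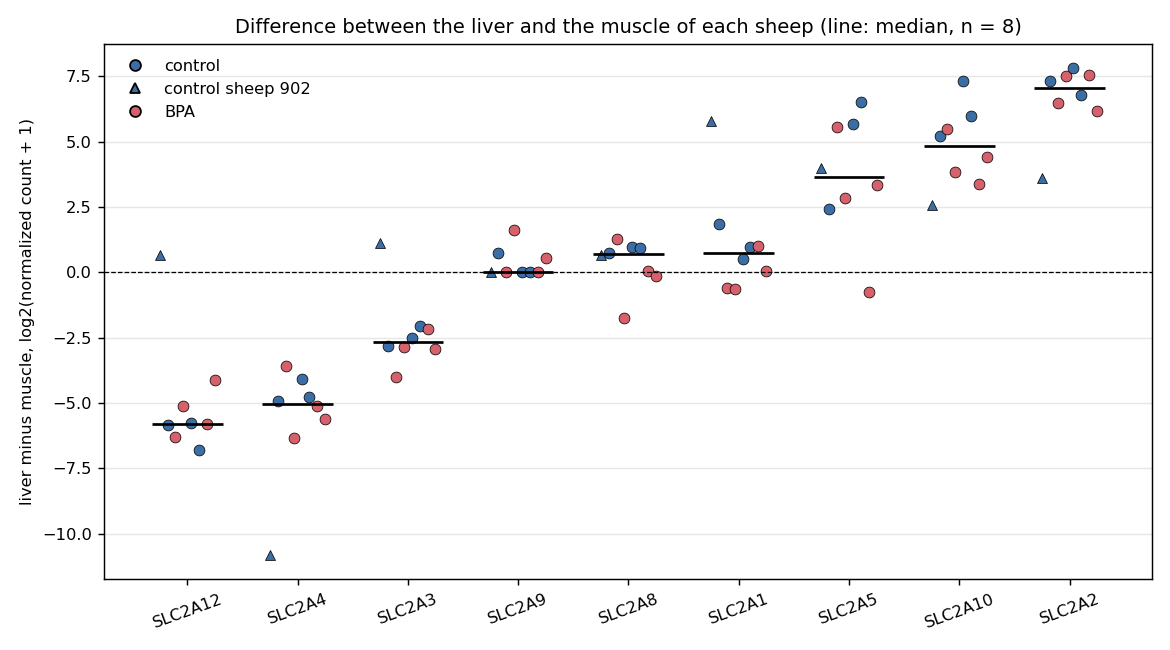
Liver minus muscle within each sheep, in log2(normalized count + 1), for the 9 genes ordered by their median (line, n = 8); blue points are control sheep, red points BPA sheep and the triangle is the control sheep 902. SLC2A2 and SLC2A10 are above 0 in all 8 sheep, and SLC2A4 is below 0 in all 8. Sheep 902 lies outside the range of the rest for SLC2A12, SLC2A3, SLC2A1, SLC2A4, SLC2A2 and SLC2A10.

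Ordering the group means gave 1 clear gap for 3 members: both liver groups of SLC2A2 and SLC2A10 lay above both muscle groups, and both muscle groups of SLC2A4 lay above both liver groups, with no overlap of ranges. Between neighbours within a tissue, control and BPA, the ranges overlapped for all 9 members. For SLC2A3 and SLC2A12 the value of the control liver 902 alone made the ranges of control muscle and control liver overlap.

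The liver of sheep 902 differed from the other 3 control livers in 6 of the 9 members by more than 5-fold. SLC2A12 was 161-fold higher than their median, SLC2A1 23.2-fold and SLC2A3 11.6-fold. SLC2A2 was 8.19-fold lower, SLC2A10 5.18-fold lower, and SLC2A4, with no read, at least 10.2-fold lower (against the limit of 3 reads, 5.65). SLC2A8 differed by 1.16-fold and SLC2A5 lay within their range. The muscle of the same sheep lay inside the range of the other control muscles for SLC2A1, SLC2A3, SLC2A4 and SLC2A12. It was the highest control muscle for SLC2A2 (17.0, with 16.4 the next) and SLC2A10 (20.7, with 16.9 the next). In this liver albumin (ALB) measured 10447 against 677303 to 739640 in the other controls, the collagen COL1A1 43399 against 1046 to 1956, and the summed fibroblast and stellate markers 121053 against 6775 to 8838. The part of this shift in the values of the transporters was not tested.

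**Figure D3:**
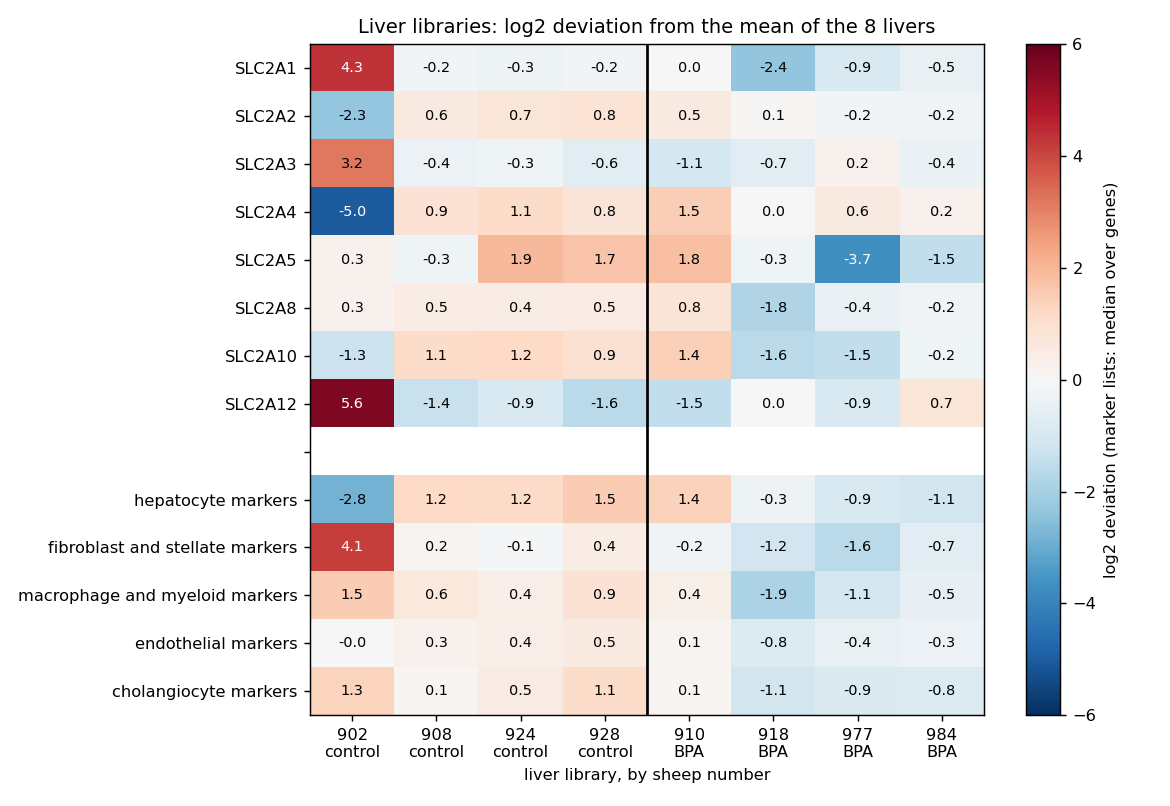
Deviation of each liver library from the mean of the 8 livers, in log2 units, for the 8 tested SLC2A genes (top) and the median gene of 5 marker lists (bottom); columns are sheep, colour runs from blue (below) to red (above). Sheep 902 is high for SLC2A1, SLC2A3, SLC2A12 and the fibroblast list and low for SLC2A2, SLC2A4 and the hepatocyte list, and BPA sheep 910 resembles the controls 908, 924 and 928.

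The first BPA comparison asked whether liver transporter transcripts differed between prenatally exposed and control sheep. None of the 8 tested members passed limma (0 of 8, with 0 at an unadjusted p under 0.05). None passed edgeR (2 at an unadjusted p under 0.05, SLC2A1 and SLC2A12) or DESeq2, where 3 of the 8 had no adjusted p and 0 of the rest had an unadjusted p under 0.05. Among all 15689 genes 0% passed limma and edgeR, 18.1% had an unadjusted p under 0.05 by limma, and DESeq2 called 1.25%. An unadjusted p under 0.05 was reached by 2844 of these genes with edgeR and by 3219 with DESeq2. Leaving out SLC2A12, which reached the minimum level through the control 902 alone, 5 of 7 estimates were lower in BPA, with a median of -0.95 against -0.01 for all genes tested. Marker lists of other cell types moved in the same comparison, with 0 genes past the threshold. Their medians were -1.99 for fibroblast and stellate markers (12 of 12 estimates lower), -1.62 for myeloid markers (10 of 11 lower) and -1.24 for cholangiocyte markers (6 of 7 lower). Endothelial markers were at -0.68 (11 of 12 lower) and hepatocyte markers at -0.43 (11 of 13 lower). Adipocyte markers were at -0.74 (4 of 6 lower) and nerve and Schwann markers at -0.28 (4 of 5 lower). Skeletal muscle fibre markers went the other way, at 1.43 (4 of 6 higher), as did the 1 tested erythroid marker (1.14). All these medians include the control liver 902. The part of these lists in the transporter estimates was not tested. Control and BPA livers overlapped for all 9 members, while the groups did not overlap for 7.61% of all genes. The 95% intervals were over 2 log2 units wide for all 8.

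For SLC2A2 the estimate was 0.12 (95% interval -1.33 to 1.57, adjusted p = 0.928 by limma). Its sign changed when the control liver 902 was left out, and also without the BPA liver 910 (-0.031) and with both count tests. The 4 BPA livers (959 to 1590) all lay below the controls 908, 924 and 928 (1624 to 1923) and all above 902 (220). Without 902 the log2 difference was -0.63 (SE 0.276, adjusted p = 0.163), in a fit where 0% of all genes passed. SLC2A4 turned in the same way, from 1.14 (95% interval -1.60 to 3.89) to -0.34 without 902, whose liver held no SLC2A4 read.

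SLC2A10 had an estimate of -0.96 (95% interval -2.64 to 0.73, adjusted p = 0.479 by limma). The BPA livers 918, 977 and 984 (102 to 265) lay below the controls 908, 924 and 928 (588 to 728), and the BPA liver 910 (845) above them. SLC2A5 was at -1.82 (95% interval -4.15 to 0.52, adjusted p = 0.351), with 910 again the highest BPA liver. SLC2A8 was at -0.81 (95% interval -1.91 to 0.29, adjusted p = 0.371), its 4 controls lying between 99.9 and 117 and its BPA livers at 146 in 910 and at 22.9 to 73.1 in the others.

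SLC2A1 was at -1.84 (95% interval -4.09 to 0.41, adjusted p = 0.334 by limma), and -0.70 without 902. SLC2A3 was at -0.95 (95% interval -2.69 to 0.79, adjusted p = 0.496), and -0.06 without 902. SLC2A12 passed the minimum level in liver only through 902. Its estimate was -0.85 (95% interval -4.17 to 2.47, adjusted p = 0.766), and without 902 it was not tested.

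With both the control 902 and the BPA liver 910 left out, a setting chosen after seeing the data, 4 of 7 tested members passed, all lower in BPA, while 43.1% of all genes passed, 23.5% lower. SLC2A10 was then at -2.18 (SE 0.364, adjusted p = 0.00268 by limma), SLC2A5 at -2.93 (SE 0.920, adjusted p = 0.0344), SLC2A2 at -0.78 (SE 0.184, adjusted p = 0.0112) and SLC2A8 at -1.26 (SE 0.427, adjusted p = 0.0446). The 3 controls kept were all over 15 M reads and the 3 BPA livers all under it, and their hepatocyte medians did not overlap, so in that setting treatment, depth and hepatocyte transcript level cannot be told apart. With the depth class as a covariate over all 8 livers 0 members and 0% of all genes passed limma. An unadjusted p under 0.05 was reached by 5 members and 2671 of 15689 genes, against 0 members and 2838 genes without the covariate. Among the shallower livers 902 stood alone for the controls, and among the deeper livers 910 stood alone for BPA. The estimates of this fit lean on these 2 livers, so they cannot be read as a BPA effect corrected for depth. Estimates nearer to 0 were those of SLC2A10 (0.27), SLC2A5 (-0.70) and SLC2A8 (-0.36). Those of SLC2A1 (-2.66), SLC2A2 (1.03), SLC2A3 (-2.04), SLC2A4 (2.92) and SLC2A12 (-2.93) were farther from 0, with adjusted p of 0.287 to 0.293.

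**Figure D4:**
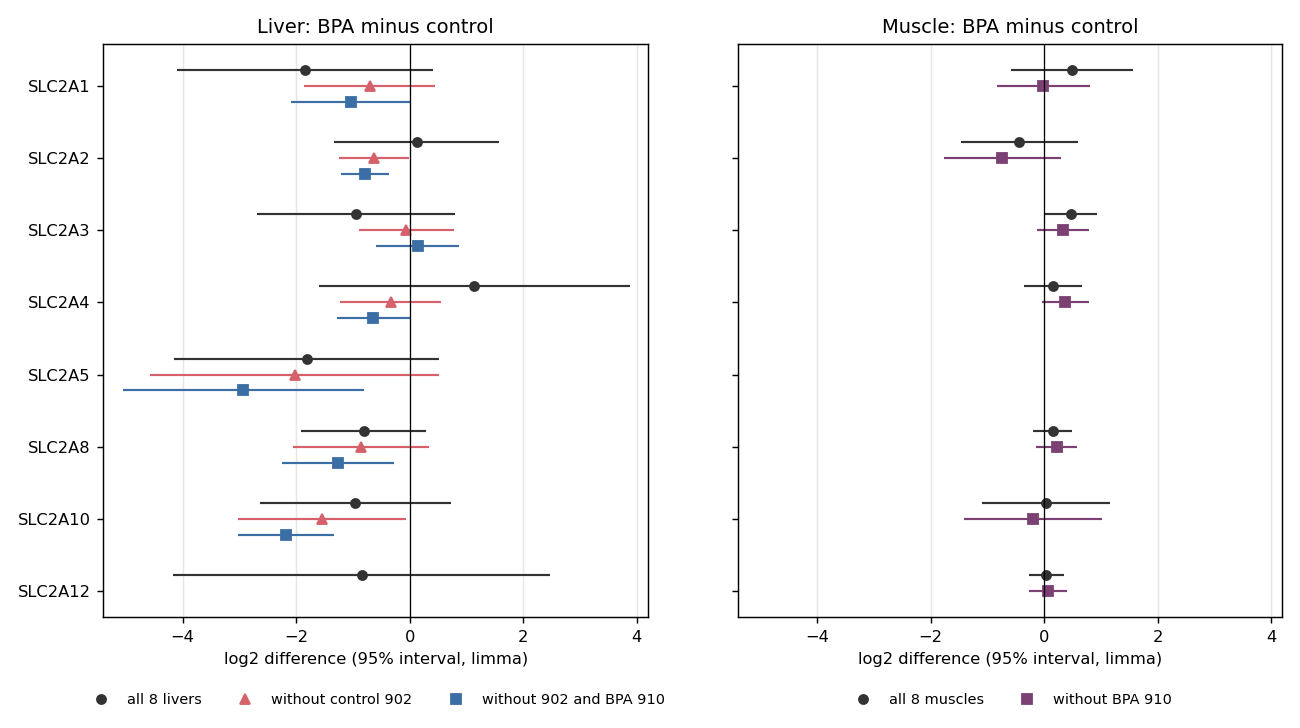
BPA minus control for each tested SLC2A gene in liver (left) and muscle (right), as log2 differences with 95% intervals from limma; circles are the fit with all libraries, and triangles and squares the fits without the named sheep. In liver the estimates of SLC2A2 and SLC2A4 change sign once the control 902 is left out, and in muscle SLC2A1 moves to about 0 without BPA sheep 910.

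In muscle 7 members were tested and 0 passed limma, edgeR or DESeq2, against 0.129% of 14706 genes with limma, 0.129% with edgeR and 0.891% with DESeq2. By limma 1 member, SLC2A3, had an unadjusted p under 0.05, where the share among all genes was 7.77%. DESeq2 gave 1 such member and 1106 of the 14706 genes, and edgeR 0 members and 1180 genes. Control and BPA muscles overlapped for all 9 members, while the groups did not overlap for 4.53% of all genes. The intervals were narrower than in liver for all 7.

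SLC2A4, the main carrier of this tissue, had an estimate of 0.16 (95% interval -0.35 to 0.66, adjusted p = 0.909 by limma), and the BPA muscles spanned both the lowest (1077 in 910) and the highest value (2597 in 918) of all 8. SLC2A12 was at 0.04 (95% interval -0.26 to 0.35, adjusted p = 0.960), the narrowest interval of the 7. Increases beyond 0.66 log2 units in SLC2A4 and 0.35 in SLC2A12 lay outside these intervals.

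SLC2A3 had an estimate of 0.47 log2 units in BPA muscle (95% interval 0.01 to 0.93, adjusted p = 0.636 by limma across all genes). Its level averaged 275 ± 75.3 in controls and 377 ± 87.0 in BPA (SD, n = 4), with overlapping ranges. The highest value, 497, was that of sheep 910, whose muscle also had the highest medians of the myeloid markers (0.58, with -0.30 to 0.19 in the other muscles), the adipocyte markers (1.237, with -0.59 to 0.25) and the fibroblast markers (0.60, with -0.25 to 0.11). Their part in the SLC2A3 and SLC2A1 values of this muscle was not tested. Without 910 the mean of SLC2A3 in BPA was 337 ± 42.1 (n = 3).

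SLC2A1 was at 0.49 (95% interval -0.59 to 1.56, adjusted p = 0.845 by limma), with its highest values in the BPA muscles 910 (219.5) and 984 (99.7). Without 910 the estimate was -0.01, and without both sheep, a setting chosen after seeing the data, -0.45. The haemoglobin gene HBB was likewise highest in these 2 muscles, at 175 in 910 and 68.1 in 984, against 0.84 to 6.09 in controls and 19.95 and 8.42 in the muscles 918 and 977. HBB was the single erythroid marker of 6 in the table to reach the minimum level. The 6 summed to 8.40 to 20.7 in control muscles and 22.5 to 196 in BPA muscles, and SLC4A1 and HBM were at 0 in several. The 12 endothelial markers summed to 18860 in 910, within the range of controls (17001 to 19088). In 984, 918 and 977 they summed to 20827, 19559 and 20856, above that range. The part of blood or endothelial transcripts in the SLC2A1 values was not tested.

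SLC2A8 was at 0.15 (95% interval -0.19 to 0.50), SLC2A10 at 0.04 (-1.09 to 1.17) and SLC2A2 at -0.44 (-1.47 to 0.60), with adjusted p of 0.853, 0.987 and 0.859 by limma. SLC2A2 and SLC2A10 rested on 3 to 20 reads per muscle. All 13 hepatocyte markers had lower estimates in BPA muscle, with a median of -0.64 against -0.002 for all genes tested. Of them 2 passed the threshold (FGB and FGG), where 0.129% of all genes passed. The part of hepatocyte transcripts in the SLC2A2 estimate was not tested. SLC2A5 (0 to 3.37) and SLC2A9 (0 to 0.81) were below the minimum level in muscle and were not tested.

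The difference between the BPA effects in liver and in muscle was tested for 7 members, and 0 passed limma, with 0 at an unadjusted p under 0.05, where 19.5% of 13677 genes were under 0.05 and 0% passed. By edgeR 0 members and 0% of genes passed, with 3 members and 2932 of the 13677 genes at an unadjusted p under 0.05. DESeq2 called 0 members and 1.08% of genes, with 1 member and 2978 genes at an unadjusted p under 0.05. It gave no adjusted p for 2 of the 7 members. These fits did not pair the liver and muscle of a sheep. With that pairing limma called 0 members and 0 genes, with 1 member and 2296 genes at an unadjusted p under 0.05. In the unpaired limma fit the largest estimate was that of SLC2A1, at -2.33 (95% interval -4.98 to 0.32, adjusted p = 0.296). Leaving out each sheep gave -2.92 to -1.16 for SLC2A1, whose BPA estimate in liver was -0.70 without 902. Without sheep 902, 6 members were tested, since SLC2A12 reached the minimum level in liver only through 902. SLC2A8 (-0.96, adjusted p = 0.313) passed without sheep 910 (-1.43, adjusted p = 0.0386), in a fit where 22.1% of all genes passed.

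The table held 3 further rows of the family. SLC2A6, a lysosomal carrier, measured 18.7 to 109 in liver and 22.3 to 45.4 in muscle, SLC2A11 8.33 to 84.1 and 16 to 52.4, and the proton-coupled inositol carrier SLC2A13 39.6 to 126 and 11.0 to 21.1. SLC2A13 was higher in liver in 8 of 8 sheep (log2 difference 1.90, adjusted p = 4.44e-06 by limma) and SLC2A6 in 7 of 8 (0.75, adjusted p = 0.0226). None of the 3 passed for BPA in either tissue.

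The genes that trap or release the sugar also separated the tissues. Of 14 tested genes of hexose phosphorylation and release, 10 passed higher in liver and 3 lower, with a median of 3.42 against 0.06 for all genes. HK1, the hexokinase row with the most reads in both tissues (not divided by length), was at 223 ± 183 across livers and 936 ± 101 across muscles (SD, 8 libraries per tissue). HK2, the insulin-regulated muscle form, was at 22.2 ± 25.6 and 529 ± 160. The glucose-releasing phosphatase G6PC measured 844 to 5599 in liver and 15.3 to 75.5 in muscle. HK2 and G6PC were chosen after their values were seen.

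Sodium-coupled and other sugar transporters were all higher in liver, 11 of 11 tested. Against the 36.1% higher and 35.3% lower among all genes, genes of the SLC2A4 storage vesicle and its fusion had 13 of 24 passing lower in liver and 6 higher (median -0.46). Surface regulators of SLC2A proteins had 9 of 16 lower and 5 higher, and transcription regulators 6 of 23 lower and 10 higher. TBC1D4, the Akt substrate that holds SLC2A4 vesicles back, was at 145 ± 52.8 across livers and 1115 ± 135 across muscles (SD, 8 libraries per tissue), chosen after its values were seen.

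None of these 5 lists had a gene past the limma threshold for BPA in liver (0 of 88 tested) or in muscle (0 of 81 tested), where 0% and 0.129% of all genes passed, and 8 and 8 of them had an unadjusted p under 0.05, where the shares of all genes were 18.1% and 7.77%. The genes named next are those of smallest p in each list, chosen by that rank. The smallest p in liver belonged to RALA, a small GTPase of vesicle docking (194 ± 31 in controls and 89.7 ± 39.0 in BPA), and to RAC1, a GTPase of the actin route to SLC2A4 movement (1054 ± 81.3 and 490 ± 272). PRKAA2, a catalytic subunit of the energy sensor AMPK, was at 336 ± 95.5 and 848 ± 378. RAB10, which acts on the same vesicles, was at 491 ± 16 and 304 ± 90.2, and the chromatin protein HMGA1 at 339 ± 123 and 162 ± 71.5. All 5 had an adjusted p of 0.256 by limma. SLC5A9, a sodium-coupled mannose and glucose carrier, was at 596 ± 39.1 and 1041 ± 282, and the sugar phosphate carrier SLC37A2 at 173 ± 83.7 and 74.8 ± 27.4, also with 0.256. The coactivator PPARGC1A (512 ± 167 and 1052 ± 525) and the metabolic genes HK1 (306 ± 242 and 141 ± 30.2) and G6PC3 (118 ± 38.2 and 65.3 ± 38.9) had adjusted p of 0.299, 0.309 and 0.291.

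In muscle the smallest p belonged to PRKCZ, an atypical protein kinase C (291 ± 15.3 in controls and 226 ± 27.9 in BPA, adjusted p = 0.343 by limma), and to MYO1C, a myosin that tethers SLC2A4 vesicles (3662 ± 128 and 3176 ± 120, adjusted p = 0.487). ARRDC4, an arrestin that lowers glucose uptake, was at 310 ± 39.5 and 401 ± 67.6, the lipogenic regulator SREBF1 at 1697 ± 293 and 2193 ± 352, and MEF2C, of the factors that bind the SLC2A4 promoter, at 5218 ± 880 and 4271 ± 168. G6PC was at 42.1 ± 22.3 and 21.7 ± 9.60, GALM, a sugar epimerase, at 75.3 ± 17.8 and 95.2 ± 16.6, and RAB13 at 62.7 ± 18.6 and 77.98 ± 7.51. SLC45A3 was at 48.0 ± 6.2 and 77.97 ± 34.5, and SLC37A2 at 34.2 ± 14.1 and 53.1 ± 16.5. Adjusted p of these 8 was between 0.545 and 0.734.

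The genes whose pattern over the 16 libraries was most like that of a member were found by the mean absolute difference of centred log2 values among 13195 named genes, as a description. The tissue difference enters this measure, and so do single libraries, such as the liver 902 for SLC2A1 (4.34 log2 units from the average liver). Nearest to SLC2A2 were AZGP1 (0.27 log2 units), TTC36 (0.28) and ACOX2 (0.30), where the median gene lay at 3.37. SLC2A4 had COQ8A (0.53), PPP1R1A (0.58) and PPM1L (0.63), and SLC2A12 had LAMA2 (0.32), CHRNA1 (0.37) and MAPK4 (0.40). SLC2A1 was nearest to SPON1 (0.42), AEBP1 (0.46) and SEMA4A (0.50), with its median gene at 1.21. For SLC2A3 these were TRPS1 (0.30), INF2 (0.30) and MOG (0.30), for SLC2A8 CLN8 (0.13), LYPLA2 (0.14) and NCSTN (0.18), for SLC2A10 GPRC5A (0.34), TMEM30B (0.40) and PGRMC1 (0.45), and for SLC2A5 IFI6 (0.69), PLAC8 (0.71) and SDF2L1 (0.79).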

How the data were processed

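The authors deposited 1 table of normalized signal per gene over 16 libraries, which its values show to be read counts scaled by a library factor. Per the labels, libraries came from a low-input kit after depletion of ribosomal RNA. Trimmomatic, FastQC and DESeq2 1.24.0 are named in the submitters' processing notes. Aligner, counter, build and strandedness were not given in the sources used here, so reads of overlapping or near-identical genes may be shared. Whole reads were recovered by dividing each column by its step (at least 99.985% of values whole within 0.1 read). No 2 libraries were identical. Tests used limma 3.58.1 (R 4.3.3), each tissue alone for BPA, on values log2-transformed after adding 1, keeping rows whose average reached 10, with a mean-variance trend, Benjamini-Hochberg adjustment and a threshold of 0.05. Fold changes on this scale understate changes of low genes. As alternatives, edgeR 4.0.16 and DESeq2 1.42.0 were run on the recovered reads, with other settings given at the end. Fits were tested on simulated data. All 9 members were named, with the 2 genes of smallest p per list and BPA comparison, the hexokinase row highest in each tissue and the 3 genes most like each member. Members and lists were chosen with earlier results of these data known. Sheep numbers pair liver and muscle, per the labels. Deviations of a sheep's 2 tissues correlated across genes by -0.10 to 0.12, and those of different sheep by -0.22 to 0.17. These correlations therefore do not set the pairs apart. No columns were left unused, and sequences were not used here.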

Additional observations from a re-analysis of the deposited data

Results flagged for a closer look

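In 6 of 35 groups of 4 libraries, 1 library lay far from the other 3 relative to the range of its group. A chance rate of about 1 in 20 holds only for independent, normally distributed values. These groups share libraries and some hold almost no reads, so 6 of 35 cannot be compared with that rate. The control liver 902 gave 3 of these, with SLC2A1 at 2902, SLC2A3 at 577 and SLC2A12 at 554. SLC2A12 in the BPA muscle 918 (391) stood above the 319 to 330 of the other BPA muscles. SLC2A9 was set apart by a single read, in the control liver 908 (0.69) and in the BPA muscle 984 (0.81).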

How the results depend on the processing

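Of 544 recomputed member values, 500 kept their direction and side of the threshold, 32 reversed, and 12 newly passed in the same direction. Among the reversed values, SLC2A2 in liver also newly passed with array weights (adjusted p = 0.00565 by limma) and without 902 and 910 (adjusted p = 0.0112). These counts leave out settings that gave no adjusted p. Among them were the tissue calls of SLC2A12 with DESeq2 and of SLC2A5 with a minimum mean of 50. With the replicate block, which pairs the liver and muscle of a sheep, the same 6 members passed between tissues (11091 genes in all) and no call changed. edgeR moved the median of all genes between tissues from 0.06 to 0.20. For BPA in liver, genes called numbered 196 with DESeq2, 9588 with array weights, 2299 in 1 fit of all libraries, 6594 without 902 and 910 (chosen after seeing the data) and 0 to 2595 leaving out each library (2595 without 910). Members called were 4 with array weights and 4 without 902 and 910. SLC2A2 was -0.26 with edgeR, -0.23 with DESeq2, -0.82 with array weights, -0.78 without 902 and 910, and -0.63 to 0.41 leaving out each library. SLC2A3 was 0.32 and 0.14 and SLC2A4 -0.42 and -0.64 with array weights and without 902 and 910, and SLC2A4 -0.34 to 1.69 leaving out each library. SLC2A10 was 0.27 with depth class as covariate and SLC2A12 0.78 with array weights. In muscle, genes called numbered 131 with DESeq2, 377 with array weights, 0 in 1 fit and 11 (without 984) to 31 (without 910). SLC2A10 was -0.0082 with a pseudocount of 5, -0.13 with edgeR, -0.13 with DESeq2 and -0.36 without 910 and 984 (chosen after seeing the data), where SLC2A1 was -0.45. SLC2A12 was -0.041 with array weights. Leaving out each library gave -0.014 to 0.84 for SLC2A1, -0.048 to 0.37 for SLC2A4, -0.40 to 0.36 for SLC2A10 and -0.084 to 0.14 for SLC2A12. For the difference between tissues in the BPA effect, DESeq2 called 148 genes, array weights 8245 genes and 2 members, and leaving out each sheep gave 0 to 3020 genes (3020 without 910, 4 without 902, 1 without 908) and 0 to 1 member. SLC2A2 was -0.73, SLC2A4 -0.70 and SLC2A12 0.76 with array weights, SLC2A4 was -0.00086 with DESeq2, and leaving out each sheep gave -0.36 to 1.04 for SLC2A2 and -0.56 to 1.68 for SLC2A4. The cause of these shifts was not tested. SLC2A5 in muscle and SLC2A9 in both tissues had at most 4 reads and were not tested.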
